A study of Homo sapiens with 9 samples.

Results

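Metallothioneins are small, cysteine-rich proteins that bind zinc and copper, and 7 genes of this system were followed through DNMT1 and DNMT3B knockdown in a colorectal cancer cell line. They are the metallothionein genes MT2A, MT1E, MT1X, MT1F and MT1G, the zinc-sensing transcription factor MTF1, and SLC30A1, which carries zinc out of the cell. They were taken by gene symbol from a count table of 25886 symbols, where each of the 7 has 1 row. The measurement was RNA sequencing of total RNA after removal of ribosomal RNA, in 3 libraries each of DNMT1 knockdown, DNMT3B knockdown and Control cells. All 3 groups are HT29, an established line from a human colorectal tumour, and all 3, the Control included, were selected with puromycin. The knockdowns were stable and delivered by lentivirus. The sources used here do not give the hairpin sequences, what the Control virus carried, or whether lines were single clones or pools. No label ties replicates to different cultures, and each p-value therefore measures the spread of the libraries alone, which may be technical.

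When free zinc in a cell rises, MTF1 binds short DNA motifs called metal response elements and raises transcription of metallothionein genes and of SLC30A1. Metallothioneins then hold the excess metal, and SLC30A1 exports it across the plasma membrane. DNMT1 copies DNA methylation onto newly made strands and DNMT3B adds methylation at new sites; some metallothionein promoters are known to be silenced by methylation in tumours.

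The windows upstream of the genes held unequal numbers of matches to the core of the metal response element. The core searched was TGCACNC or TGCGCNC on both strands, where a match can overlap another match, in the 250 bases before the start of each gene in RefSeq (GRCh38.p14). Windows were available for 4 of the 7 members, and not for MT1E, MT1F and MT1G. Shown are MT2A, the most expressed metallothionein, MT1X, expressed at a lower level, MT1H, which had no counts, and SLC30A1, the member with the largest difference. Each reads 5′ to 3′ on the gene's strand, and capitals mark the core, read on the opposite strand where it appears as GNGTGCA or GNGCGCA.
MT2A (chr16:56608334-56608583, plus strand): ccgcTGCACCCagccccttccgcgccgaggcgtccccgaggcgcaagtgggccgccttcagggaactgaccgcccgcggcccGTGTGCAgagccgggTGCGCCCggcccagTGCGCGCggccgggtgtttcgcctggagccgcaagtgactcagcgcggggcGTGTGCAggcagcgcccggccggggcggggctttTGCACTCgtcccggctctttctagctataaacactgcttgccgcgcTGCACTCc
MT1X (chr16:56682220-56682469, plus strand): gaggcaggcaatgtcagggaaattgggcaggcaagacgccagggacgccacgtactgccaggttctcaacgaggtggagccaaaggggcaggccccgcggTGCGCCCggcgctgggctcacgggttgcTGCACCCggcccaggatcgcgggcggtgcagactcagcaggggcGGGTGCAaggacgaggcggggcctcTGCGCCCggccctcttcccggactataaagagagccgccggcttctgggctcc
MT1H (chr16:56669564-56669813, plus strand): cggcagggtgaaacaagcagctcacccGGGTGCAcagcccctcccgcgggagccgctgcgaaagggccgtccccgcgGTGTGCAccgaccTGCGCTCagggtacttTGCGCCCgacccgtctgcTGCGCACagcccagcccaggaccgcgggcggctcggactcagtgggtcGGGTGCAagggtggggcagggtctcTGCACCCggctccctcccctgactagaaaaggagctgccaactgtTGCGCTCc
SLC30A1 (chr1:211579162-211579411, minus strand): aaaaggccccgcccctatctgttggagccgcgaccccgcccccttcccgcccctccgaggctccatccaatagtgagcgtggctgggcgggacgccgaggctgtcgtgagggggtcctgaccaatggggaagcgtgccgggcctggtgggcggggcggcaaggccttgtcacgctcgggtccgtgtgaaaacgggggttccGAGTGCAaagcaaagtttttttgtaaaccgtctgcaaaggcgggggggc
MT2A had 7 cores, 5 of them on the gene's own strand, and 0.0313% of the 35114 windows of this length had as many or more. MT1X had 4 cores, a number that 0.37% of windows reached. MT1H, a gene without a single count in any library, had 8 cores, matched or exceeded in 0.0171% of windows. The SLC30A1 window had 1 core, a number that 24.8% of windows reached, and the MTF1 window had none. These counts depend on the start used: the RefSeq start behind the SLC30A1 window lies upstream of the GENCODE 29 gene given below, and those behind the MT2A and MT1X windows lie inside theirs. CpG sites, where DNA methylation sits, numbered 32 in the MT2A window, 22 in those of MT1X, MT1H and SLC30A1 and 20 in that of MTF1, against a median of 11 over all windows. The silent or nearly silent copies MT1B and MT4 had 7 and 6 CpG sites, with 3 cores each. A core is a match of letters and not a measured binding site, and DNA methylation was not analysed here.

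Total counts per library ran between 18772187, in DNMT3B knockdown replicate 2, and 33666224, in Control replicate 1. Levels are given in CPM, counts per 1000000 counts of a library, and 3 counts stand for 0.0895 to 0.162 CPM. DNMT1 mRNA was at 55% of Control in DNMT1 knockdown cells (adjusted p = 2.83e-20), and DNMT3B mRNA was at 49.9% of Control in DNMT3B knockdown cells (adjusted p = 1.49e-17), as the labels say. The enzyme not targeted was at 107% of Control for DNMT1 in DNMT3B knockdown cells (adjusted p = 0.0171). For DNMT3B in DNMT1 knockdown cells it was at 105% (adjusted p = 0.22). Of 12 colorectal epithelial markers, 8 averaged at least 1 CPM in every group, among them EPCAM and KRT8. The intestinal transcription factor CDX2 averaged 40.1 CPM in DNMT1 knockdown, 40.1 CPM in DNMT3B knockdown and 38.2 CPM in Control cells, and KRT20 averaged 1.63, 2.02 and 1.03 CPM in the same groups. The rest of the list averaged under 1 CPM in every group. CEACAM5 had 0 counts in DNMT1 knockdown, 2 in DNMT3B knockdown and 0 in Control libraries, and CDX1 had 1, 0 and 0. LGALS4 averaged 0.290, 0.125 and 0.295 CPM in the same groups, and VIL1 averaged 0.905, 0.894 and 0.905 CPM. The identity of the line beyond its label was not tested.

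MT2A and MT1E, which made up nearly all of the metallothionein counts, were modestly higher in both knockdowns, and MT1F was lower in DNMT1 knockdown cells. MTF1 rose in DNMT3B knockdown cells. SLC30A1 rose in both knockdowns, to 1.24-fold in DNMT1 knockdown and 1.76-fold in DNMT3B knockdown cells. MT1X passed the test in neither, and MT1G was not measurably expressed. A gene counted as changed at an adjusted p under 0.05 in edgeR's quasi-likelihood test over 16660 genes, a filter that 6 of the 7 members passed. In DNMT1 knockdown against Control 3 of the 6 rose and 1 fell, where 41.8% of all tested genes changed, 21% higher and 20.8% lower. The libraries of the groups compared did not overlap for 3 of the 6, nor for 49.4% of all tested genes. In DNMT3B knockdown against Control 4 of the 6 rose and none fell, where 47.7% of all tested genes changed, 23.1% higher and 24.6% lower. Again 3 of the 6 had libraries without overlap, as had 54.1% of all tested genes. Such calls were common in all genes, and the sizes of the differences follow gene by gene. Regardless of sign, the median log2 difference of all tested genes was 0.147 in DNMT1 knockdown and 0.17 in DNMT3B knockdown against Control. Among called genes it was 0.24 and 0.27. MT2A lay below the median of all tested genes in both comparisons. MT1E in both, and MTF1 in DNMT3B knockdown, lay below that of called genes. SLC30A1 in both, and MT1F in DNMT1 knockdown, lay above it. Both comparisons share the same 3 Control libraries. Since these are bulk RNA samples, fewer cells of a kind and less RNA per cell cannot be told apart.

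**Figure D1:**
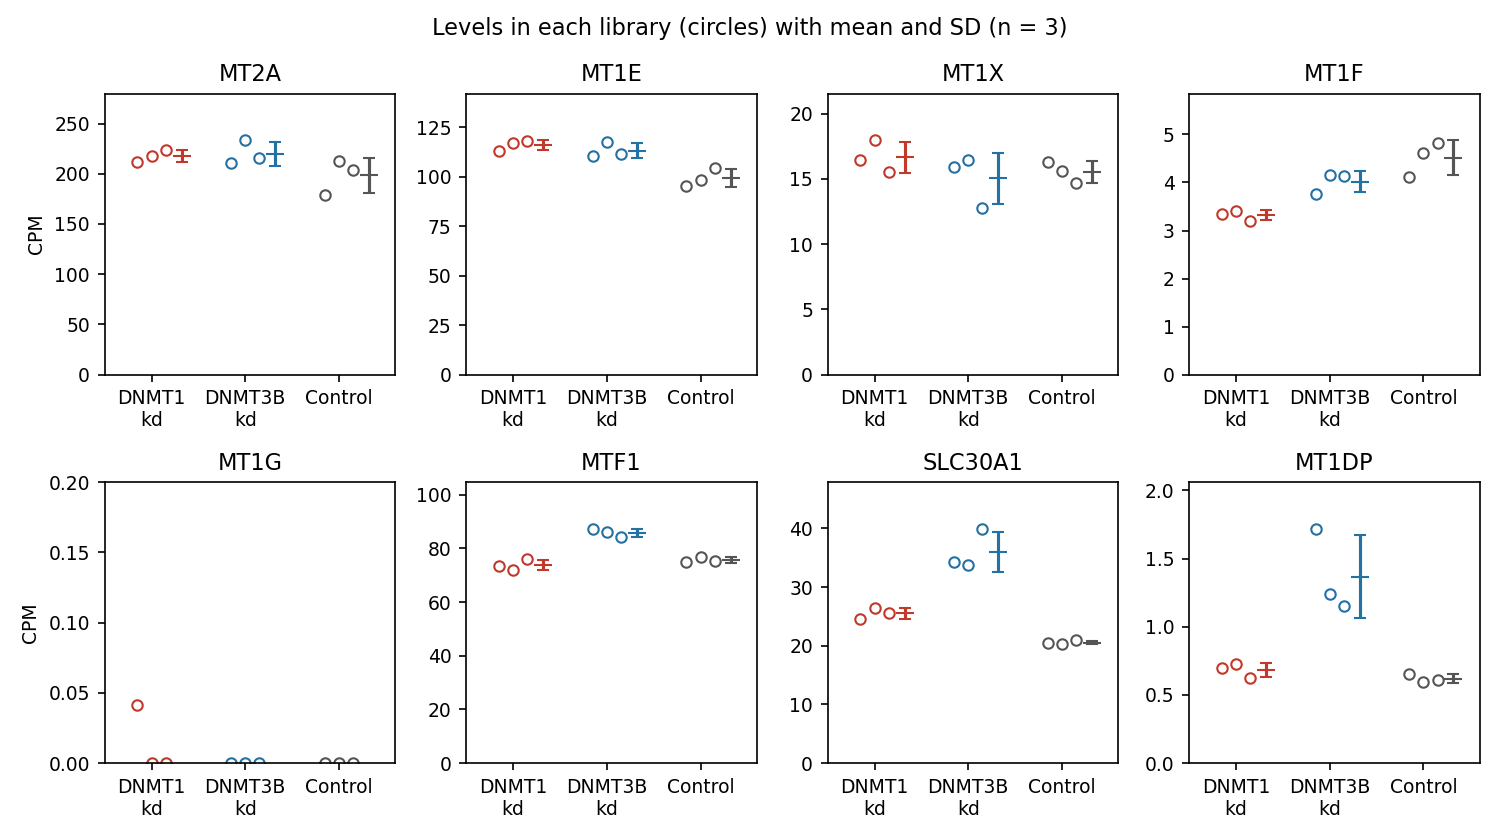
Level of the 7 members and of the pseudogene MT1DP in each library (CPM, linear axes that differ between panels), with DNMT1 knockdown, DNMT3B knockdown and Control side by side; circles are libraries, the line and bar are the mean and SD of 3, left out for MT1G. SLC30A1 lies between 33.8 and 39.9 CPM in DNMT3B knockdown libraries, above the 24.6 to 26.4 CPM of DNMT1 knockdown and the 20.3 to 20.9 CPM of Control libraries.

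MT2A (chromosome 16, 56608199 to 56609497, plus strand; GRCh38, GENCODE 29) encodes the most widely expressed human metallothionein. It was read at 212, 217 and 224 CPM in DNMT1 knockdown libraries, at 211, 233 and 215 CPM in DNMT3B knockdown libraries and at 179, 213 and 204 CPM in Control libraries. Control replicates 1 and 3 lay below every knockdown library, replicate 1 by far the most, and Control replicate 2 lay within the knockdown range. Mean levels were 218 ± 5.98 CPM in DNMT1 knockdown and 199 ± 17.5 CPM in Control cells (SD, n = 3 each), a log2 difference of 0.13 ± 0.045 (SE) with an adjusted p of 0.016. DNMT3B knockdown cells averaged 220 ± 11.8 CPM, a log2 difference from Control of 0.15 ± 0.045 with an adjusted p of 0.00761. Without Control replicate 1 neither call held: the log2 difference was 0.07 in DNMT1 knockdown cells with an adjusted p of 0.229, and 0.08 in DNMT3B knockdown cells with an adjusted p of 0.134. The DNMT1 knockdown call was also lost without DNMT1 knockdown replicate 3 (0.11, adjusted p = 0.0737). Over the 17 alternatives the adjusted p ran between 0.00179 and 0.229 for DNMT1 knockdown and between 0.000525 and 0.134 for DNMT3B knockdown. Both MT2A calls thus depended on Control replicate 1, the lowest library.

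MT1E (chromosome 16, 56625475 to 56627112, plus strand) is the second of the highly expressed copies. Its levels were 113, 117 and 118 CPM in DNMT1 knockdown libraries, 110, 118 and 112 CPM in DNMT3B knockdown libraries and 95.5, 98.6 and 105 CPM in Control libraries. Every knockdown library stood above every Control library. The log2 difference from Control was 0.22 ± 0.038 in DNMT1 knockdown cells (1.17-fold, adjusted p = 2.07e-05) and 0.18 ± 0.038 in DNMT3B knockdown cells (1.14-fold, adjusted p = 0.000174). No alternative ended either call.

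MT1X (chromosome 16, 56682424 to 56684196, plus strand), another protein-coding copy, had 16.4, 17.9 and 15.5 CPM in DNMT1 knockdown libraries, 15.9, 16.4 and 12.8 CPM in DNMT3B knockdown libraries and 16.3, 15.6 and 14.7 CPM in Control libraries. The 3 groups overlapped. The 95% interval of the log2 difference from Control ran from -0.05 to 0.25 for DNMT1 knockdown (adjusted p = 0.305) and from -0.22 to 0.10 for DNMT3B knockdown (adjusted p = 0.555). MT1X overlaps AC026461.1 on the same strand, which is not a row of the table, and 18.3% of the 50-base windows of MT1X transcripts occur in another gene's transcripts, so its counts are uncertain. The same share was 16.5% for MT1G, 7.1% for MT1E, 3.0% for MT2A and 1.2% for MT1F. For MT1X, AC026461.1 shared the most windows, and at 100 bases it was the only gene, with 11.3%. The MT1X share is therefore partly this overlap and not likeness between copies alone.

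MT1F (chromosome 16, 56657694 to 56660698, plus strand) was the metallothionein that fell. Its levels were 3.34, 3.41 and 3.20 CPM in DNMT1 knockdown libraries, 3.76, 4.15 and 4.14 CPM in DNMT3B knockdown libraries and 4.12, 4.62 and 4.81 CPM in Control libraries. These rest on 77 to 81 counts in each DNMT1 knockdown library, 77 to 108 in each DNMT3B knockdown library and 124 to 150 in each Control library. All DNMT1 knockdown libraries lay below all others, and DNMT3B knockdown libraries lay between, touching the Control range. In DNMT1 knockdown cells MT1F fell to 73.7% of Control (log2 difference -0.44 ± 0.115, adjusted p = 0.00236). In DNMT3B knockdown cells its log2 difference of -0.17 ± 0.111 did not pass (adjusted p = 0.219), with a 95% interval from -0.39 to 0.06.

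MT1G (chromosome 16, 56666731 to 56668065, minus strand), a copy known to be methylated and silent in several tumour types, had 1 count in all 9 libraries together. That count was in DNMT1 knockdown replicate 1. Pooled over 3 libraries it is 0.0139 CPM with an exact Poisson 95% interval from 0.000353 to 0.0776 CPM, which covers counting error only. Counts of 0 allow up to 0.0434 CPM in DNMT3B knockdown and 0.0328 CPM in Control cells. No difference in MT1G was detectable at this depth.

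Taken as a whole, the metallothionein pool read higher in both knockdowns than in Control cells, though no test was run on the sum. Summed over the 16 metallothionein rows of the table, it came to 346, 357 and 361 CPM in DNMT1 knockdown libraries, 343, 373 and 345 CPM in DNMT3B knockdown libraries and 296, 333 and 328 CPM in Control libraries. All knockdown libraries were above all Control libraries. Of all tested genes 49.4% and 54.1% also had libraries without overlap, in either direction, in DNMT1 and DNMT3B knockdown against Control. The pool was 111.1% of Control in DNMT1 knockdown and 110.9% in DNMT3B knockdown cells, and 107.3% and 107% without Control replicate 1. MT2A took 61.4 ± 0.514% in DNMT1 knockdown, 62.1 ± 0.550% in DNMT3B knockdown and 62.2 ± 1.75% in Control libraries (SD, n = 3 each). The share of MT1F was 0.937 ± 0.0440% in DNMT1 knockdown, 1.14 ± 0.0537% in DNMT3B knockdown and 1.42 ± 0.0447% in Control libraries, without overlap between the groups; no test was run on these shares.

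**Figure D2:**
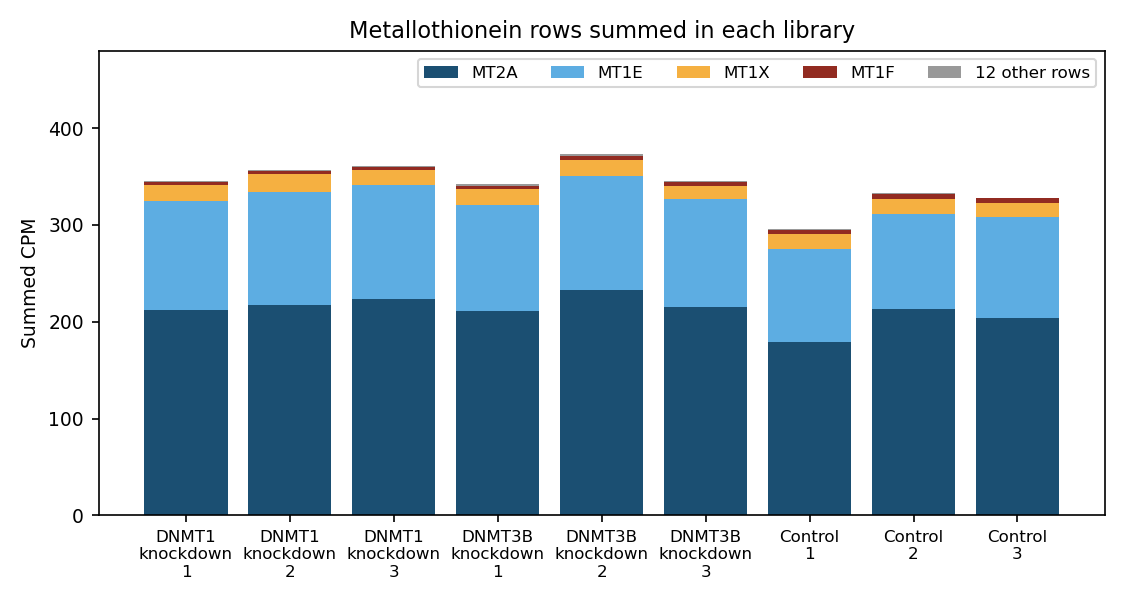
Summed metallothionein level per library (CPM, stacked by gene, axis from 0), with DNMT1 knockdown, DNMT3B knockdown and Control libraries left to right. The stacks reach 346 to 361, 343 to 373 and 296 to 333 CPM, and MT2A and MT1E fill nearly all of each.

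The rest of the family was silent or nearly so in all 3 groups. On chromosome 16 the cluster spans 56565049 to 56684196, and 15 of its 16 annotated genes have a row in the table. The 6 rows MT1A, MT1H, MT1M, MT1IP and MT3 in the cluster and MT1HL1 on chromosome 1, had 0 counts in all 9 libraries. MT1B, MT4, MT1JP and MT1G had 1 to 3 counts in total, and MT1L had 31. A row of 0 counts allows up to 0.0418 CPM in DNMT1 knockdown, 0.0434 CPM in DNMT3B knockdown and 0.0328 CPM in Control cells. The rows at 0, MT1H with its 8 cores among them, were thus not detectable at this depth in either knockdown. MT1L, a transcribed pseudogene, was at 0.125 CPM in DNMT1 knockdown, 0.188 CPM in DNMT3B knockdown and 0.0983 CPM in Control cells, with exact Poisson 95% intervals from 0.0574 to 0.238, 0.1 to 0.322 and 0.045 to 0.187 CPM that overlap.

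MT1DP, a transcribed pseudogene of the cluster (chromosome 16, 56643705 to 56644786, plus strand), rose in DNMT3B knockdown cells. It had 0.702, 0.725 and 0.623 CPM in DNMT1 knockdown libraries, 1.72, 1.24 and 1.15 CPM in DNMT3B knockdown libraries and 0.656, 0.596 and 0.610 CPM in Control libraries. All DNMT3B knockdown libraries lay above all others. The difference from Control was 1.14 ± 0.229 on the log2 scale in DNMT3B knockdown cells (2.20-fold, adjusted p = 0.000121) and 0.13 ± 0.270 in DNMT1 knockdown cells (adjusted p = 0.735). Counts per library were 15 to 17 in DNMT1 knockdown, 23 to 42 in DNMT3B knockdown and 16 to 22 in Control cells, and none of the 50-base windows of its transcript occurs in another gene.

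**Figure D3:**
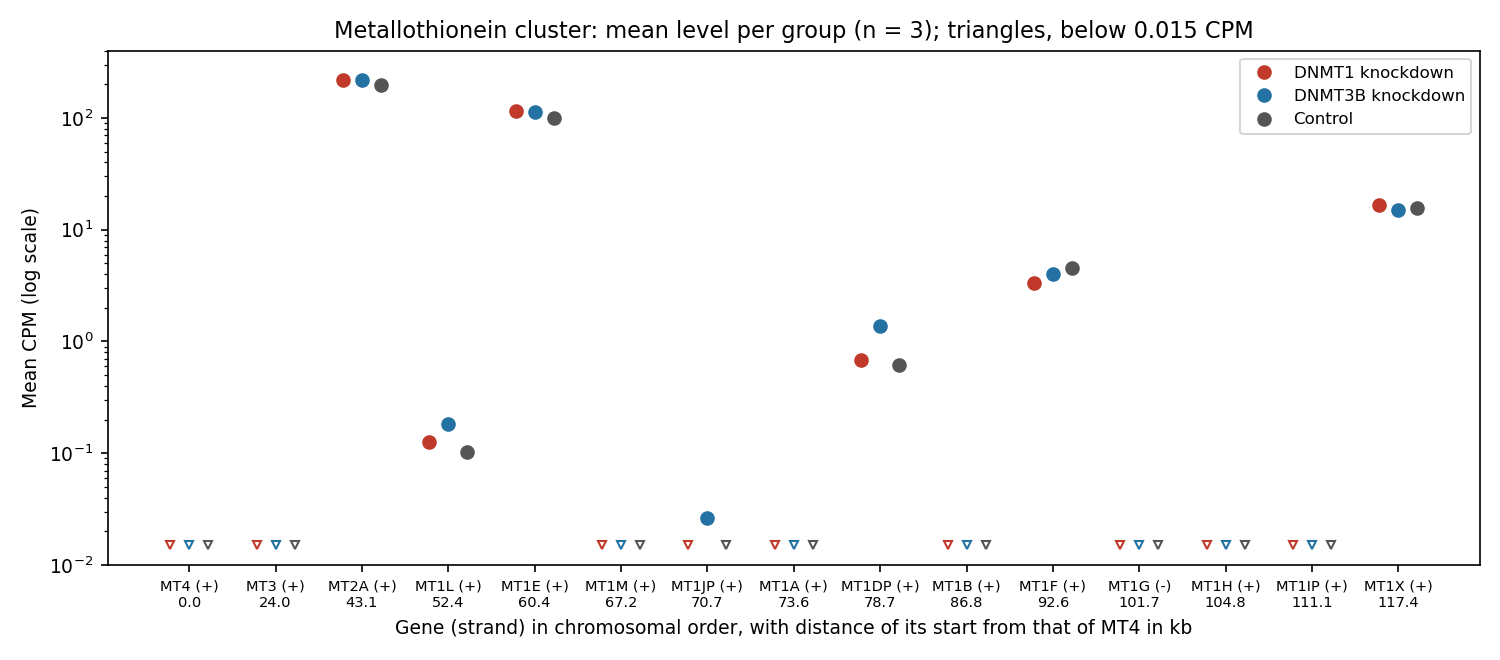
Mean level (CPM, log axis) of the metallothionein genes in their order along chromosome 16, each labelled with its distance in kb from the start of MT4, for DNMT1 knockdown, DNMT3B knockdown and Control; triangles mark means below 0.015 CPM. MT2A and MT1E stand far above the other genes, and MT1DP averages 0.683 CPM in DNMT1 knockdown, 1.37 CPM in DNMT3B knockdown and 0.621 CPM in Control cells.

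MTF1 (chromosome 1, 37809567 to 37859620, minus strand), the factor that reads the zinc signal, moved in 1 knockdown. It had 73.4, 72.1 and 75.9 CPM in DNMT1 knockdown libraries, 87.1, 86.1 and 84.2 CPM in DNMT3B knockdown libraries and 75.0, 76.8 and 75.2 CPM in Control libraries. All DNMT3B knockdown libraries were above all others, and the other two groups overlapped. The log2 difference from Control was 0.18 ± 0.037 in DNMT3B knockdown cells (1.13-fold, adjusted p = 0.000127). In DNMT1 knockdown cells it was -0.04 ± 0.037 with a 95% interval from -0.11 to 0.04 (adjusted p = 0.479). An antisense gene, AL929472.4, overlaps MTF1 and is not a row of the table; whether the counting used strand is not given in the sources used here.

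SLC30A1 (chromosome 1, 211571568 to 211578742, minus strand), the zinc exporter of the plasma membrane, had the largest difference among the members in DNMT3B knockdown cells. It stood at 24.6, 26.4 and 25.6 CPM in DNMT1 knockdown libraries, at 34.3, 33.8 and 39.9 CPM in DNMT3B knockdown libraries and at 20.4, 20.3 and 20.9 CPM in Control libraries. None of the groups overlapped. In DNMT1 knockdown cells the log2 difference from Control was 0.31 ± 0.061 (1.24-fold, adjusted p = 0.000106), and in DNMT3B knockdown cells it was 0.82 ± 0.058 (1.76-fold, adjusted p = 3.97e-13). The median size of the difference among called genes was 0.24 and 0.27 in these 2 comparisons. The DNMT3B knockdown value stayed between 0.73 and 0.86 over all alternatives. Of the 10 stromal, leukocyte and endothelial markers that could be tested, COL1A1, CD68 and VWF were higher and CLDN5 was lower in DNMT3B knockdown than in Control cells. In DNMT1 knockdown cells COL1A1 was higher, and THY1 and PECAM1 were lower, than in Control cells. Summed stromal markers were 23.5 to 28.4 CPM in DNMT1 knockdown, 32.5 to 33.8 CPM in DNMT3B knockdown and 20.7 to 25.6 CPM in Control libraries, with 2 of 7 genes at 1 CPM or more and COL1A2 and DCN at 0 in every group. Summed leukocyte markers were 19.1 to 20.4, 31.9 to 37.0 and 19 to 20 CPM in the same order, with 1 of 9 genes at 1 CPM or more, and most of that sum was CD68, at 18.0, 32.9 and 17.7 CPM on average. Summed endothelial markers were 4.17 to 5.29, 5.93 to 6.89 and 4.95 to 5.68 CPM, with 2 of 7. Their part in the result was not tested.

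Set against each other, the knockdowns differed in the regulator and the exporter and not, by the test, in any metallothionein member. Of the 6 tested members 2 were lower in DNMT1 than in DNMT3B knockdown cells and none was higher, where 45.2% of all tested genes changed, 24.3% higher and 20.9% lower. SLC30A1 was at 70.5% of its DNMT3B knockdown level in DNMT1 knockdown cells (log2 difference -0.50 ± 0.058, adjusted p = 1.59e-08). MTF1 differed by -0.22 ± 0.038 (adjusted p = 1.75e-05). For MT1E the 95% interval ran from -0.04 to 0.11 and for MT2A from -0.10 to 0.08; these bound the differences the data allow. The MT1F libraries did not overlap between the knockdowns, which 52.2% of all tested genes share, and its log2 difference of -0.27 ± 0.124 missed the threshold (adjusted p = 0.0738). MT1X differed by 0.16 ± 0.079 (adjusted p = 0.105), and passed only without DNMT3B knockdown replicate 1 (0.21, adjusted p = 0.0461) or replicate 2 (0.22, adjusted p = 0.0364), with adjusted p between 0.0364 and 0.697 over the alternatives. MT1DP, which is no member, was lower in DNMT1 than in DNMT3B knockdown cells by the same test (49.9% of the DNMT3B knockdown level, adjusted p = 0.000862).

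Per kb of exon, the order of the members began with the same 2 genes in every group. MT2A had 167.6 ± 4.61 CPM per kb in DNMT1 knockdown, 169.2 ± 9.12 in DNMT3B knockdown and 152.9 ± 13.4 in Control cells (SD, n = 3 each). MT1E followed with 110.2 ± 2.34, 107.6 ± 3.71 and 94.6 ± 4.37 CPM per kb in the same groups. MT1X and MTF1 came next: MT1X had 9.38 ± 0.686, 8.48 ± 1.1 and 8.75 ± 0.465 CPM per kb, and MTF1 had 9.20 ± 0.238, 10.69 ± 0.182 and 9.43 ± 0.124. In DNMT1 knockdown cells these neighbours did not differ beyond their spread. SLC30A1 had 4.66 ± 0.167, 6.58 ± 0.618 and 3.75 ± 0.0608 CPM per kb, and MT1F had 1.76 ± 0.0569, 2.13 ± 0.115 and 2.39 ± 0.191. Lengths are exon unions from GENCODE 29. With the shortest principal transcript of each gene MT1X stood above MTF1 in every group, at 36.97 against 9.26 CPM per kb in DNMT1 knockdown cells, so the lower places depend on the length used.

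Among the other zinc transporters more genes fell than rose in both knockdowns, where SLC30A1 rose. Of 9 further SLC30 genes, most of which export zinc from the cytosol, 6 were tested. None rose in either knockdown. In DNMT1 knockdown cells 3 fell and in DNMT3B knockdown cells 4 fell, where 20.8% and 24.6% of all tested genes fell. The median log2 difference of the tested SLC30 genes was -0.11 and -0.13, beside medians near 0 over all tested genes. The DNMT3B knockdown count was 2 in DESeq2, without Control replicate 2 or without DNMT3B knockdown replicate 3. The DNMT1 knockdown count ran from 2 to 3 over the alternatives. Of 14 SLC39 genes, which bring zinc into the cytosol, 12 were tested: 1 rose and 6 fell in DNMT1 knockdown cells, and 1 rose and 7 fell in DNMT3B knockdown cells. The single rise in DNMT3B knockdown cells, SLC39A6, was lost without Control replicate 3, and 2 rose when no filter on low counts was used. SLC39 falls ran from 4 to 6 in DNMT1 knockdown cells over the alternatives, and stayed at 7 in DNMT3B knockdown cells.

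SLC39A8, an importer of zinc and manganese, averaged 29.8 ± 0.889 CPM in DNMT1 knockdown, 39.1 ± 2.83 CPM in DNMT3B knockdown and 46.0 ± 0.640 CPM in Control cells (SD, n = 3 each). It fell by 0.63 ± 0.049 on the log2 scale in DNMT1 knockdown cells (adjusted p = 5.38e-12) and by 0.24 ± 0.048 in DNMT3B knockdown cells (adjusted p = 0.000104). SLC39A10 and SLC39A4 are named after their values were seen. SLC39A10, an importer of the plasma membrane, averaged 126 ± 1.66, 121 ± 2.55 and 157 ± 6.40 CPM in DNMT1 knockdown, DNMT3B knockdown and Control cells, lower by 0.32 ± 0.035 (adjusted p = 9.87e-09) and 0.38 ± 0.036 (adjusted p = 2.1e-10) on the log2 scale. SLC39A4, the main importer of dietary zinc in the intestine, went opposite ways in the knockdowns: it averaged 43.5 ± 2.20 CPM in DNMT1 knockdown, 30.2 ± 1.80 CPM in DNMT3B knockdown and 34.6 ± 1.14 CPM in Control cells. Its log2 difference was 0.33 ± 0.049 in DNMT1 knockdown cells (adjusted p = 2.5e-06) and -0.19 ± 0.053 in DNMT3B knockdown cells (adjusted p = 0.0027), and between the knockdowns it was 0.52 (adjusted p = 8.79e-10).

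**Figure D4:**
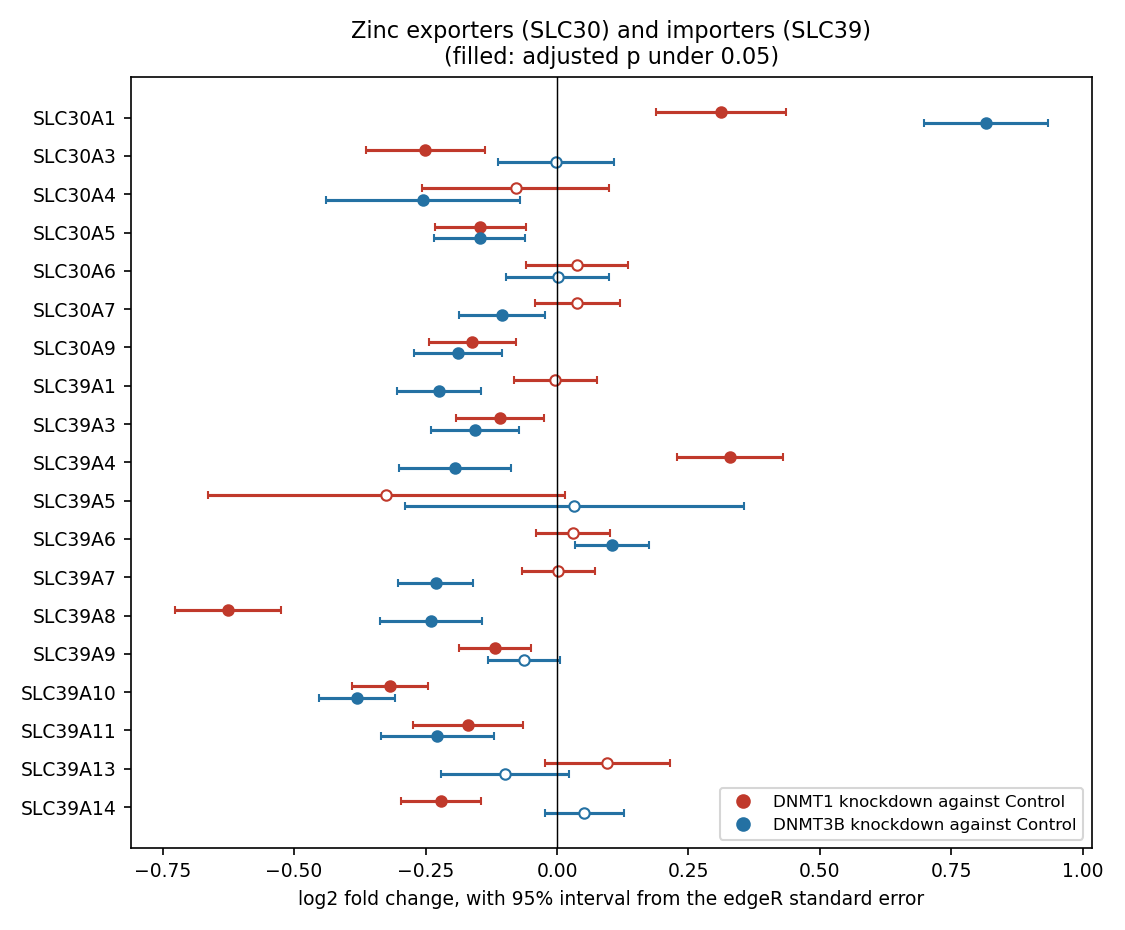
Log2 difference from Control of SLC30A1 and the other tested SLC30 and SLC39 genes in DNMT1 knockdown and DNMT3B knockdown cells, with filled points at an adjusted p under 0.05. SLC30A1, at 0.31 and 0.82, lies above the others in DNMT3B knockdown, while SLC39A8 and SLC39A10 lie below 0 in both.

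Copper is the other metal that metallothioneins hold. All 15 copper-handling genes listed were tested: 3 rose and 3 fell in DNMT1 knockdown cells, and 1 rose and 6 fell in DNMT3B knockdown cells, with medians of -0.06 and -0.15. Over all tested genes 41.8% changed in DNMT1 knockdown cells, 21% higher and 20.8% lower. In DNMT3B knockdown cells 47.7% changed, 23.1% higher and 24.6% lower, and the medians over all tested genes were near 0 in both. The list as a set was not tested. Without DNMT1 knockdown replicate 3, 1 fell in DNMT1 knockdown cells, and without DNMT3B knockdown replicate 1, 2 rose in DNMT3B knockdown cells. ATP7B, a copper-exporting pump, averaged 18.2 ± 0.830 CPM in DNMT1 knockdown, 13.5 ± 0.352 CPM in DNMT3B knockdown and 20.1 ± 0.764 CPM in Control cells (SD, n = 3 each), and fell by 0.57 ± 0.063 on the log2 scale in DNMT3B knockdown cells (adjusted p = 6.09e-09). In DNMT1 knockdown cells its difference was -0.14 ± 0.059 (adjusted p = 0.0561). SLC31A2, a low-affinity copper transporter, averaged 0.377 ± 0.185, 0.565 ± 0.0653 and 0.741 ± 0.189 CPM in the same groups. Its log2 difference of -0.99 ± 0.324 in DNMT1 knockdown cells passed the test (adjusted p = 0.0137) but not in DESeq2 (0.0654), without Control replicate 1 (0.112) or without DNMT1 knockdown replicate 3 (0.14), with adjusted p between 0.00793 and 0.14 over the alternatives. ATOX1, the copper chaperone that feeds ATP7B and named after its values were seen, rose in both knockdowns, by 0.34 ± 0.072 in DNMT1 knockdown cells (adjusted p = 0.000266) and 0.48 ± 0.072 in DNMT3B knockdown cells (adjusted p = 1.7e-06).

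Genes of the response to metals and oxidants, many of them targets of the factor NFE2L2, mostly fell. The list also holds the regulators NFE2L2, KEAP1 and HSF1. All 14 were tested: none rose and 12 fell in DNMT1 knockdown cells, and 1 rose and 9 fell in DNMT3B knockdown cells. Of all tested genes 21% rose and 20.8% fell in DNMT1 knockdown cells, and 23.1% rose and 24.6% fell in DNMT3B knockdown cells. Median log2 differences of the list were -0.50 and -0.23, beside medians near 0 over all tested genes. NFE2L2 and KEAP1 were among the falls in both knockdowns, and the rise in DNMT3B knockdown cells was HSF1 (0.12, adjusted p = 0.00362). In DNMT1 knockdown cells 1 rose without DNMT1 knockdown replicate 1 or without DNMT3B knockdown replicate 1 or 2, and also without TMM scaling, with a filter of at least 1 CPM in 3 libraries or in a fit of only the groups compared. SLC7A11, the cystine transporter, averaged 88.8 ± 2.70 CPM in DNMT1 knockdown, 161 ± 3.35 CPM in DNMT3B knockdown and 190 ± 4.13 CPM in Control cells (SD, n = 3 each), a fall of 1.09 ± 0.036 (adjusted p = 5.66e-22) and 0.24 ± 0.034 (adjusted p = 6.26e-07) on the log2 scale. NQO1, a quinone reductase, averaged 314 ± 15.4, 279 ± 12.5 and 441 ± 13.3 CPM in the same groups and fell in both. SRXN1, which repairs oxidised peroxiredoxins, fell by 0.64 in DNMT1 knockdown and 0.35 in DNMT3B knockdown cells. TXNRD1, thioredoxin reductase, fell by 0.74 in DNMT1 knockdown cells (adjusted p = 1.97e-15). In DNMT3B knockdown cells its difference was -0.13 (adjusted p = 0.0141), a call lost in turn without Control replicate 1, Control replicate 3, DNMT3B knockdown replicate 1 or DNMT3B knockdown replicate 3, with adjusted p up to 0.108. HSPA1A was lower in both (-0.77 and -0.71), but it is nearly identical to HSPA1B and its counts are uncertain. It averaged 1.32 CPM in DNMT1 knockdown, 1.37 CPM in DNMT3B knockdown and 2.23 CPM in Control cells. HSPA1B averaged 178, 184 and 195 CPM in the same groups. Its log2 difference from Control was -0.14 in DNMT1 knockdown (adjusted p = 0.00427) and -0.09 in DNMT3B knockdown cells (adjusted p = 0.0544). The DNMT3B knockdown call of HSPA1A was lost without Control replicate 1 (adjusted p = 0.0561, the highest of its alternatives).

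Glucocorticoids also induce metallothionein genes. Of 10 genes of the glucocorticoid response, 9 were tested: 4 rose and 2 fell in DNMT1 knockdown cells, and 3 rose and 3 fell in DNMT3B knockdown cells, with medians of 0.02 and 0.03, where 41.8% and 47.7% of all tested genes changed. The 2 falls in DNMT1 knockdown cells were 1 in DESeq2, without TMM scaling and without each of 4 libraries in turn (Control replicates 1 and 3, DNMT1 knockdown replicates 2 and 3). SGK1, a kinase of this response, averaged 3.85 ± 0.840 CPM in DNMT1 knockdown, 2.88 ± 0.362 CPM in DNMT3B knockdown and 4.52 ± 0.417 CPM in Control cells and fell by 0.63 ± 0.139 on the log2 scale in DNMT3B knockdown cells (adjusted p = 0.000356). Of 12 genes that flank the cluster on chromosome 16, 9 were tested: 1 rose and 1 fell in DNMT1 knockdown cells, and 2 rose and 2 fell in DNMT3B knockdown cells, against the same shares of all tested genes. Without Control replicate 1, 2 rose in DNMT1 knockdown cells. Its nearest tested neighbours, named for their position after their values were seen, were BBS2, with differences of -0.04 (adjusted p = 0.644) and 0.02 (adjusted p = 0.85), and NUP93, with -0.01 in DNMT1 knockdown cells (adjusted p = 0.89) and 0.16 in DNMT3B knockdown cells (adjusted p = 0.000604).

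The genes whose levels ran most like each member over the 9 libraries were found by Pearson correlation of log2 CPM among 13480 genes, given as a description since the libraries share 3 groups. MT2A ran closest to TMSB10, a small actin-binding peptide gene (r = 0.9708), then CHRNB2 and NAT16. MT1E ran closest to TOP1MT, the mitochondrial topoisomerase (r = 0.9696), then POLR2M and GTF2IP23. MT1F ran with DUT, which clears dUTP (r = 0.9681), IVD and ADI1, and MT1X had no neighbour above CCDC171 (r = 0.8753), with KCTD18 and LINC02405 after it. MTF1 ran with LYAR (r = 0.9935), TAF1D and AOC2. SLC30A1 ran with STOM, a membrane scaffold gene (r = 0.9878), then EHD1 and IGFBP6. No gene of one member's group of 3 recurred for another.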

How the data were processed

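The 9 RNA-seq libraries were read from 1 table of raw counts per gene symbol, deposited by the authors. Per the submitters' processing notes the tools were STAR, featureCounts and DESeq2 with GRCh38 (hg38); the sources used here give no versions, annotation, strand setting or read length. All 9 libraries entered 1 fit in edgeR 4.0.16 (R 4.3.3): filterByExpr kept 16660 of 25886 symbols (3310 had no count), with TMM scaling, the quasi-likelihood test (6 residual degrees of freedom and 25.4 prior degrees of freedom) and Benjamini-Hochberg adjustment over all genes tested, called at 0.05. CPM are counts per 1000000 counts of the TMM-scaled library size; SE is the absolute log2 difference over the square root of F. The fit was tested on simulated data. Between replicates of a group the chi-square of the counts was 1.78 to 3.64 times its degrees of freedom, above counting noise. Poisson intervals and limits of a 0 count cover counting error only; intervals of log2 differences come from the fit and include the spread between libraries.

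The members and gene lists were chosen with earlier results of these data known. Genes named beyond the members are those called against Control with an absolute log2 difference of at least 0.5, at most 3 per list and comparison by adjusted p, and the 3 genes most correlated with each member among those averaging at least 2 CPM. Outside this rule, SLC39A10, SLC39A4, SLC39A6, ATOX1, BBS2, NUP93, NFE2L2, KEAP1, HSF1, HSPA1B and genes named within marker lists were chosen after their values were seen. Gene positions and lengths come from GENCODE 29 and promoter windows from RefSeq (GRCh38.p14). The alternatives were DESeq2 1.42.0, limma 3.58.1 with voom, other scaling and filters, fits of 2 groups, a replicate block and each library left out. Counts within lists were recomputed under them as an addition after seeing the data. So were values of the genes named by size of difference, and of SLC39A10, SLC39A4 and ATOX1.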

Additional observations from a re-analysis of the deposited data

How the results depend on the processing

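Over 17 alternatives the 18 member differences gave 306 values, of which 298 kept direction and side of the threshold. With DESeq2, voom, other scaling or filters and fits of 2 groups, 4, 4 and 2 members were called in DNMT1 knockdown against Control, DNMT3B knockdown against Control and DNMT1 against DNMT3B knockdown, as in the tests reported; leaving out single libraries gave 3 to 4, 3 to 4 and 2 to 3. Genes called over all genes tested numbered 6956, 7949 and 7534; without single libraries they ran from 5737 to 7111, 7032 to 8079 and 6658 to 7602, and in DESeq2 they were 5718, 6706 and 6323.

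Values that changed sign numbered 3, none of them called: MT1X in DNMT3B knockdown against Control without DNMT3B knockdown replicate 3 (0.06, adjusted p = 0.583; 0.266 to 0.908 over the alternatives, with differences from -0.115 to 0.05767 over libraries left out), and MT2A between DNMT1 and DNMT3B knockdown without DNMT1 knockdown replicate 1 (0.008, adjusted p = 0.916) or DNMT3B knockdown replicate 2 (0.03, adjusted p = 0.635; 0.515 to 0.916 over the alternatives, with differences from -0.04074 to 0.02956 over libraries left out). Leaving out 1 library, the summed metallothionein level ran from 107.3% to 113.6% of Control in DNMT1 knockdown and from 107% to 113.3% in DNMT3B knockdown cells. The causes were not tested.

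Replicate numbers did not pair the libraries: same-numbered deviations correlated between -0.0615 and 0.0425. A fit with the replicate number as a block called 6796, 7789 and 7379 genes and 4, 4 and 2 members. MT1F at 77 to 150 counts per library and MT1DP at 15 to 42 are limited by depth, and the silent copies cannot be compared.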
